A study of Mus musculus with 9 samples.

Results

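The lysyl oxidase family comprises 5 genes in the mouse, Lox, Loxl1, Loxl2, Loxl3, and Loxl4, and all 5 were found by symbol among the 43346 genes of the deposited table. They were examined in RNA-Seq libraries of lung fibroblasts from aged mice that carry a Col1a1-GFP transgene, in which GFP is driven by the collagen I promoter. Every mouse was 72 weeks old by the sample labels. The 4 aged sham mice received saline into the trachea and the 5 aged bleo mice received bleomycin, a drug that injures the lung and leads to fibrosis, once in either case. Lungs were taken after 30 days, and cells that were GFP+, CD45-, CD31-, and EpCAM- were sorted, which selects collagen-producing cells and removes hematopoietic, endothelial, and epithelial cells. The comparison of aged bleo with aged sham asks how fibroblasts of the injured aged lung differ from those of the uninjured aged lung, and no library of young mice was analysed here. Because the sort gate itself reads the activity of the collagen I promoter, both groups hold Col1a1-expressing cells by selection.

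Lysyl oxidases are secreted enzymes that use copper and a quinone cofactor made from residues of their own to oxidize lysine side chains of collagen and elastin. The aldehydes formed in this way react with neighbouring chains to give the covalent cross-links that stiffen collagen fibrils and hold elastic fibers together. Lox and Loxl1 are made with a propeptide that is cleaved off outside the cell, whereas Loxl2, Loxl3, and Loxl4 carry scavenger receptor cysteine-rich domains in front of the catalytic part. Cross-linked collagen is a feature of fibrotic lung, and fibroblasts are a main source of these enzymes.

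What the members share is the catalytic end of the protein with its copper-binding histidines, and the coding sequence of that stretch is shown because it is the part by which the family is recognised. It was read from the GENCODE M21 transcripts (GRCm38) as 33 bases in reading frame, 5′ to 3′ on the coding strand, with the codons of the 3 copper-binding histidines in capitals. The sequence of Lox is not printed.
Loxl1: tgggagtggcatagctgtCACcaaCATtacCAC
Loxl2: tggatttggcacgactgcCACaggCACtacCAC
Loxl3: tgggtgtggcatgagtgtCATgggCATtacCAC
Loxl4: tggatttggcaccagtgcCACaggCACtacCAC
Loxl2 and Loxl4 had 31 of the 33 bases in common, and Lox and Loxl1 had 32. The other 8 pairs shared 21 to 25 bases. An intron interrupted the stretch at the same place in all 5 genes, after base 23. In Loxl1 (minus strand) the stretch lay in exons 3 and 4, at chr9:58294359-58294381 and chr9:58293720-58293729. In Loxl2 (plus strand) it lay in exons 10 and 11, at chr14:69682316-69682338 and chr14:69689028-69689037. In Loxl3 (plus strand) it lay in exons 10 and 11 as well, at chr6:83049995-83050017 and chr6:83050116-83050125. In Loxl4 (minus strand) it lay in exons 11 and 12, at chr19:42599877-42599899 and chr19:42598807-42598816.

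The libraries held 49921946 to 68260600 counted reads each, and all 5 members passed the minimum average count of 25 that a gene needed to be tested, with 797 to 61701 counts per member and library. Levels are given as CPM, the counts scaled to library size by TMM normalization, which compares a gene between libraries, and as the deposited FPKM, which is scaled to gene length and compares genes with each other. A gene was called differentially expressed where the Benjamini-Hochberg adjusted p-value of edgeR's quasi-likelihood test (FDR) was under 0.10 and the fold change over 1.5. Of the 16877 genes tested, 23.8% were called, 12.3% as higher and 11.5% as lower in aged bleo, and the median log2 fold change was 0.01. In 32.2% of the genes tested the libraries of the groups did not overlap. The fibroblast genes Col1a1, Col1a2, and Dcn were abundant, at no less than 3649, 4884, and 1421 CPM in any library. The defining markers of sorted-out cells were low for endothelium (Pecam1, 2.44 to 6.70 CPM) and epithelium (Epcam, 0.41 to 1.20 CPM). Ptprc, which encodes the CD45 used to remove leukocytes, was still at 42.3 to 169 CPM in aged sham and 30.6 to 183 CPM in aged bleo. Each sample description closes with a number whose meaning is not given. It is 5 in 3 of the aged bleo libraries (replicates 1, 2, and 3), 6 in aged bleo 5, and 4 in aged bleo 4, which shares it with the whole aged sham group.

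Among the members, 3 of 5 were called, where 23.8% of all genes tested were. Lox and Loxl2 were higher and Loxl4 was lower in aged bleo. In each of these 3 genes the groups did not overlap, where 32.2% of all genes tested showed no overlap. Loxl1 and Loxl3 did not pass the thresholds. In bulk RNA of sorted cells, a change in the proportion of cells that express a gene cannot be told apart from a change in RNA per cell.

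Lox (ENSMUSG00000024529, minus strand of chromosome 18, 52516069 to 52529867, GRCm38) encodes the founding enzyme of the family, which cross-links fibrillar collagen and elastin. It was at 142, 175, 160.4, and 159 CPM in aged sham 1 to 4. In aged bleo 1 to 5 it was at 675, 457, 665, 842, and 1129.6 CPM. The lowest aged bleo library was thus far above the highest aged sham library, and aged bleo 5 and 4 were the highest. The means were 159 ± 13.2 CPM (SD, n = 4) and 754 ± 251 CPM (SD, n = 5), a 4.73-fold difference (edgeR log2 fold change 2.24, 95% interval 1.70 to 2.78, FDR 2.50e-04). The coefficient of variation between mice was 8.26% in aged sham and 33.3% in aged bleo. It was higher in aged bleo for every other member too, whichever way the level went.

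Loxl2 (ENSMUSG00000034205, plus strand of chromosome 14, 69609068 to 69695834) encodes a lysyl oxidase that acts on collagen, including the collagen IV of basement membranes. Aged sham 1 to 4 had 184, 165, 159, and 211 CPM. Aged bleo 1 to 5 had 390.0, 316, 439, 566, and 676 CPM. As with Lox, the groups did not overlap, aged bleo 2 was nearest to aged sham, and aged bleo 5 and 4 were farthest from it. The mean rose 2.66-fold, from 179.7 ± 23.3 CPM (SD, n = 4) to 477 ± 144 CPM (SD, n = 5) (edgeR log2 fold change 1.41, 95% interval 0.92 to 1.90, FDR 0.00183). The annotated miRNA gene Mir6950 lies inside Loxl2 on the same strand. Its 59 to 77 counts in aged sham and 104 to 284 in aged bleo were also higher after bleomycin (edgeR log2 fold change 1.24, FDR 0.0140), and reads of the host transcript cannot be told apart from its own. An antisense gene over Loxl2, Gm27177, had at most 6 counts in any library, and RP23-103I12.7 had none.

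Loxl1 (ENSMUSG00000032334, minus strand of chromosome 9, 58287723 to 58313212) encodes the enzyme best known for elastic fiber maintenance. Its levels were 736, 847, 909, and 891 CPM in aged sham 1 to 4. In aged bleo 1 to 3 they were 1031, 965, and 1009.9 CPM, above every aged sham library, whereas in aged bleo 4 and 5 they were 576 and 599.8 CPM, below every aged sham library. No aged bleo library lay within the range of aged sham, but the means were close, with 846 ± 77.8 CPM (SD, n = 4) and 836 ± 228 CPM (SD, n = 5). The fitted difference was not called (edgeR log2 fold change -0.02, 95% interval -0.47 to 0.44, FDR 0.961). The 3 higher libraries are those whose descriptions end in 5. With that number as a term in the model, which leaves only aged bleo 4 to set aged bleo against aged sham, the log2 fold change was -0.55 (FDR 0.0120), still under the fold threshold.

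Loxl3 (ENSMUSG00000000693, plus strand of chromosome 6, 83034173 to 83052562), which mice need for normal formation of the palate and spine, was the steadiest member between mice, with coefficients of variation of 3.75% in aged sham and 9.46% in aged bleo. It was at 99.97, 103, 107, and 98.9 CPM in aged sham 1 to 4. In aged bleo 1 to 5 it was at 114, 97.3, 105, 109.7, and 125 CPM, so that the groups overlapped. The difference was not called (edgeR log2 fold change 0.11, 95% interval -0.07 to 0.29, FDR 0.321). The end of Loxl3 overlaps the oppositely oriented gene Htra2 over 1297 bases, and reads there may belong to either gene. Htra2 itself was not called (edgeR log2 fold change -0.06, FDR 0.502).

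Loxl4 (ENSMUSG00000025185, minus strand of chromosome 19, 42593982 to 42612813), which acts on collagen like Loxl2, was the member that fell. Aged sham 1 to 4 had 82.9, 55.3, 50.2, and 46.8 CPM. Aged bleo 1 to 5 had 23.1, 41.7, 28.8, 10.9, and 17.9 CPM. Every aged bleo library was below every aged sham library, although aged bleo 2, at 41.7 CPM, came close to aged sham 4. The mean was 58.8 ± 16.4 CPM (SD, n = 4) in aged sham and 24.5 ± 11.7 CPM (SD, n = 5) in aged bleo, 2.40-fold lower (edgeR log2 fold change -1.26, 95% interval -2.04 to -0.49, FDR 0.0204). With the number that ends the descriptions as a term, the log2 fold change was -2.43, with aged bleo 4, the lowest library, as the only link between the groups. Loxl4 also varied most between mice, by a coefficient of variation of 28.0% in aged sham, where aged sham 1 was the highest, and 47.7% in aged bleo. It was the one member with a promoter in the RefSeq table used here. The 250 bases before its start (GRCm38.p6, chr19:42612807-42613056, minus strand) had a GC content of 76.0%, against a median of 52.4% over 32851 promoters, and 27 CpG dinucleotides against a median of 6. None of 5 motifs searched on both strands occurred in it. The SMAD palindrome GTCTAGAC was held by 0.213% of all promoters and the SMAD element CAGACA by 21.0%. The AP-1 motif TGANTCA was held by 7.81%, the hypoxia response core ACGTG by 19.6%, and the TATA box TATAAA by 13.6%.

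**Figure D1:**
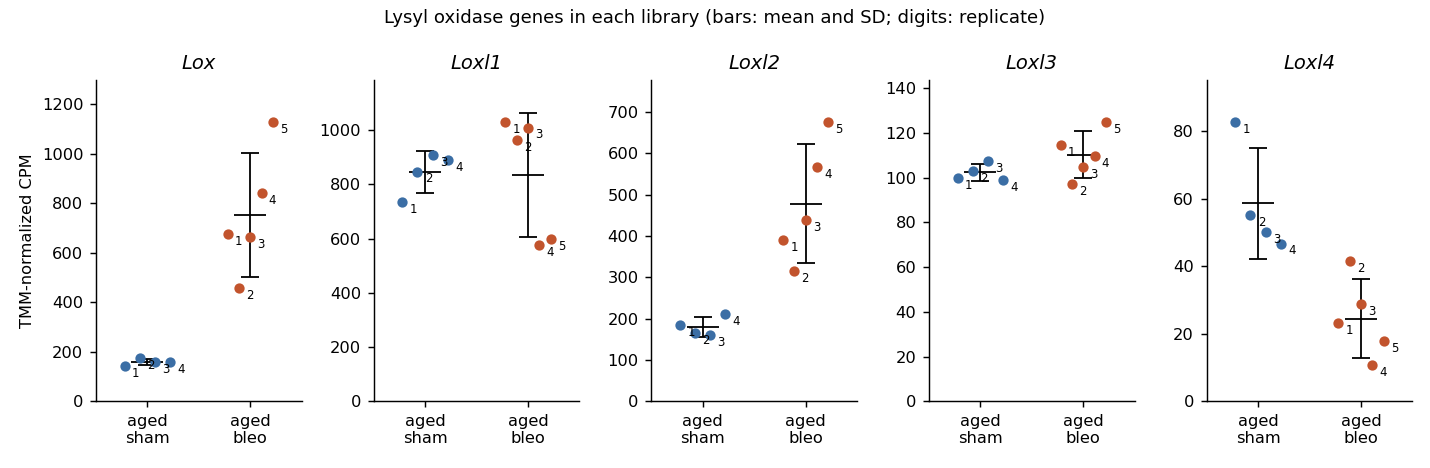
TMM-normalized CPM (y axis, starting at 0 and scaled per gene) of the 5 lysyl oxidase genes in each aged sham (blue) and aged bleo (orange) library, with the replicate number beside each point and the mean and SD as black bars. Lox and Loxl2 lie higher and Loxl4 lower in all 5 aged bleo libraries, while the aged bleo libraries of Loxl1 lie on both sides of the aged sham range.

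On the length-scaled FPKM values, Loxl1 was the most abundant family member of the uninjured cells. In aged sham it was at 106 ± 9.87 FPKM (SD, n = 4), against 13.9 ± 1.57 for Loxl2, 13.9 ± 1.27 for Lox, 10.2 ± 0.522 for Loxl3, and 5.85 ± 1.64 for Loxl4. Lox and Loxl2 were not separated in aged sham, since Loxl2 was the higher of the pair in 2 of 4 libraries, and every other neighbour in this order was separated in all 4. In aged bleo, Lox was at 67.7 ± 23.4 FPKM (SD, n = 5), and Loxl1, at 107 ± 27.4 FPKM, exceeded it in 3 of 5 libraries. In aged bleo 4 and 5 Lox was the highest member, with 78.6 and 102 FPKM against 77.5 and 77.7 FPKM for Loxl1. Lox exceeded Loxl2 (38.2 ± 12.1 FPKM) in 5 of 5 libraries, and Loxl3 (11.3 ± 1.25 FPKM) and Loxl4 (2.48 ± 1.13 FPKM) followed in the same order as in aged sham.

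The FPKM values of the 5 genes summed to 137 to 158 in aged sham and to 199.6 to 248 in aged bleo. Within this sum the makeup differed between the groups. The share of Loxl1 was 70.7% ± 2.43 (SD, n = 4) in aged sham and 47.7% ± 13.2 (SD, n = 5) in aged bleo. Lox went from 9.25% ± 0.598 to 29.5% ± 8.76, and Loxl2 from 9.31% ± 1.29 to 16.7% ± 4.72. Loxl3 made up 6.83% ± 0.397 and 4.99% ± 0.347 of the sum, and Loxl4 3.96% ± 1.40 and 1.12% ± 0.600. None of the 5 shares overlapped between the groups. A share falls when another member rises, as that of Loxl3 did while its mean FPKM was 10.2 in aged sham and 11.3 in aged bleo, so the shares describe the mixture and were not tested.

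**Figure D2:**
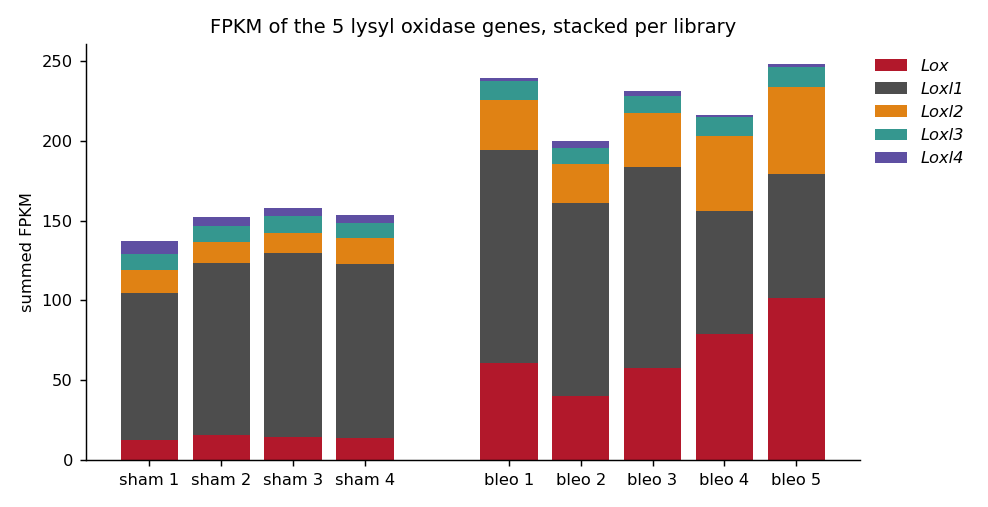
Deposited FPKM values of the 5 lysyl oxidase genes stacked per library (y axis, FPKM; x axis, 4 aged sham and 5 aged bleo libraries). Loxl1 makes up most of every aged sham bar, and Lox and Loxl2 take up larger parts of the aged bleo bars, most of all in aged bleo 4 and 5.

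The 2 mice with the most Lox after bleomycin, aged bleo 5 and 4, also had the most Loxl2 and the least Loxl4, and aged bleo 2 had the least Lox and Loxl2 and the most Loxl4 of its group. Relative to the mean log2 CPM of aged sham, Lox was higher by 1.53 in aged bleo 2 and by 2.83 in aged bleo 5, Loxl2 by 0.82 and 1.92. Loxl4 differed by -0.46 in aged bleo 2 and by -2.39 in aged bleo 4. After the mean of each group was removed, the log2 CPM of Lox correlated over the 9 libraries with that of Loxl2 (Pearson's r = 0.870) and Loxl3 (r = 0.870), and inversely with Loxl1 (r = -0.69) and Loxl4 (r = -0.75). These values are descriptive, as all genes of a library share its mouse, cell mixture, and depth, and aged bleo 4 and 5 carry much of the spread. Of the 15269 genes with a mean of at least 1 CPM, Loxl3 ranked at place 327 and Loxl2 at place 330 by their correlation with Lox. The genes most like Lox were Rbbp7 (r = 0.993), Grsf1 (r = 0.989), and Gm9844 (r = 0.982), and those most like Loxl2 were Rap2c (r = 0.987), Gm7204 (r = 0.980), and Ssr3 (r = 0.980). For Loxl1 they included Bag5 (r = 0.985) and Sh3glb2 (r = 0.982), for Loxl3 Gm13050 (r = 0.994), Sbspon (r = 0.979), and Pik3r3 (r = 0.967), and for Loxl4 Gm7162 (r = 0.991), Tmem131 (r = 0.988), and Slc23a2 (r = 0.988).

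**Figure D3:**
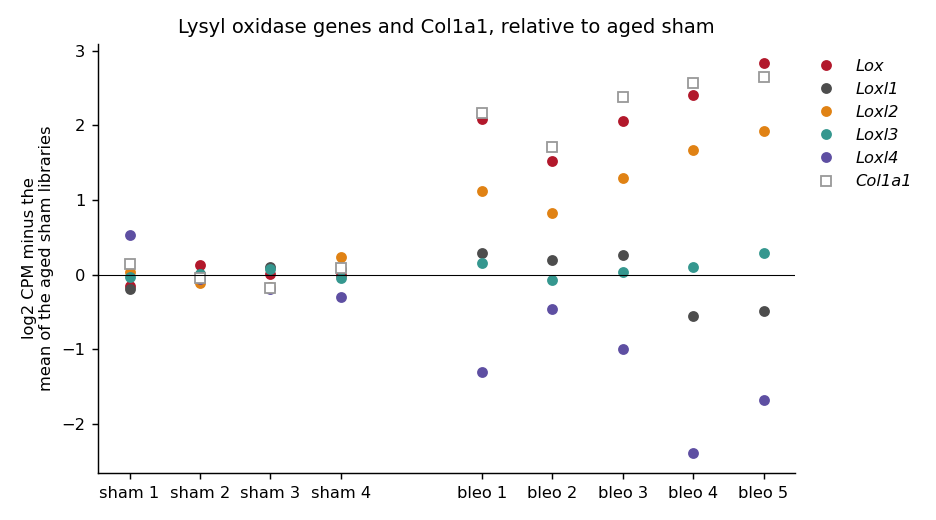
Log2 CPM of the lysyl oxidase genes and Col1a1 minus the mean of the 4 aged sham libraries (y axis, log2 units), by library (x axis). Lox follows Col1a1 closely in the 5 aged bleo libraries, Loxl2 lies below both, and Loxl1 is above 0 in aged bleo 1 to 3 and below 0 in aged bleo 4 and 5.

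Whether the members changed unequally was tested on the log2 ratio of the FPKM of each pair within a library, which does not depend on how libraries are scaled. The difference in the mean ratio was set against every split of the libraries (two-sided exact permutation test), and the p-values of 10 member pairs and 5 ratios to Col1a1 were adjusted together. The ratio differed between the groups in 9 of 10 pairs, each at p = 0.0159 by exact permutation (adjusted p = 0.0183), the smallest that 4 against 5 libraries can give. The 10 ratios are made from 5 genes and are not independent of each other. For Loxl4 with Lox or Loxl2, the separation already followed from the single genes, which did not overlap and went opposite ways. The share of other gene pairs that differ in this way was not counted. Lox rose more than Loxl2, their log2 ratio going from 0.00 ± 0.25 (SD, n = 4) in aged sham to 0.82 ± 0.11 (SD, n = 5) in aged bleo. Lox rose relative to Loxl4 by 3.55 on the log2 scale, with ratios of 0.59 to 1.58 in aged sham and 3.26 to 6.08 in aged bleo. Loxl4 fell relative to Loxl3 too, by a log2 ratio difference of 1.47 between these structurally similar members. The exception was the ratio of Loxl1 to Loxl3, which differed by -0.16 with overlapping groups (exact permutation p = 0.556).

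The same test against Col1a1, the gene of the main collagen chain that these enzymes cross-link, asked whether enzyme and substrate transcripts changed to the same extent. Col1a1 rose by 2.33 on the log2 scale (edgeR, FDR 1.76e-04), from 265 ± 23.4 FPKM (SD, n = 4) to 1371 ± 349 FPKM (SD, n = 5). The log2 ratio of Lox to Col1a1 was -4.26 ± 0.24 in aged sham and -4.37 ± 0.19 in aged bleo. It overlapped between the groups (difference -0.11, exact permutation p = 0.444, adjusted p = 0.476), so a difference in this ratio was not detected. The ratio of Loxl2 to Col1a1 fell by 0.93, from -4.25 ± 0.11 to -5.18 ± 0.14, although Loxl2 itself rose. Relative to Col1a1, Loxl3 fell by 2.19, Loxl1 by 2.35, and Loxl4 by 3.66 on the log2 scale, all without overlap (exact permutation p = 0.0159, adjusted p = 0.0183, for each of these 4 members). Loxl1 and Loxl3 themselves were not called (edgeR log2 fold changes -0.02 and 0.11), so their lower ratios mainly restate the rise of Col1a1. The share of all genes that fall against Col1a1 in this way was not counted.

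**Figure D4:**
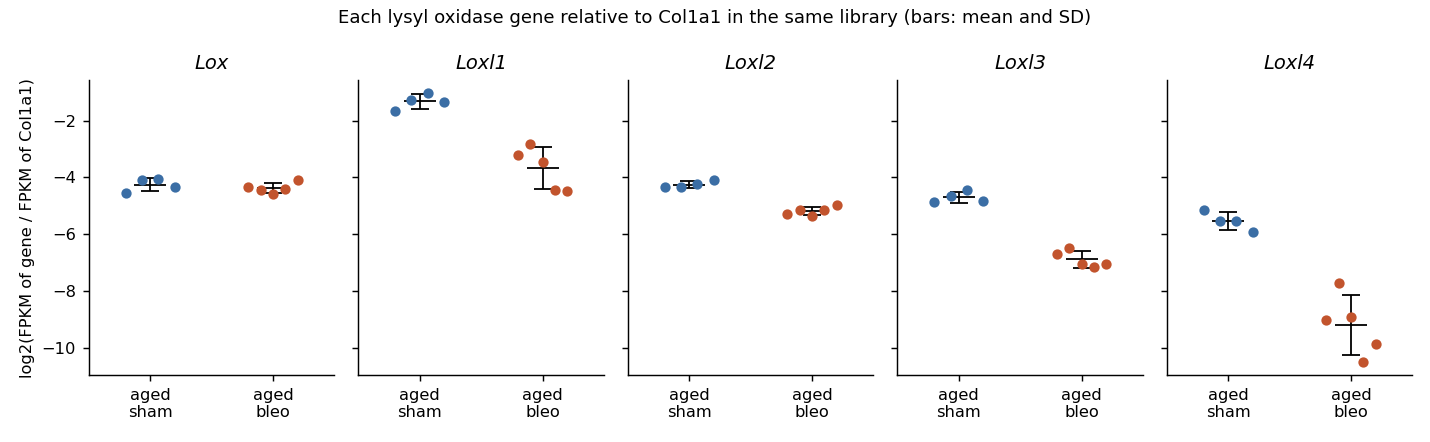
Log2 ratio of the FPKM of each lysyl oxidase gene to the FPKM of Col1a1 in the same library (y axis, shared), for aged sham (blue) and aged bleo (orange), with mean and SD as black bars. The groups overlap for Lox and lie apart, with lower ratios in aged bleo, for Loxl1, Loxl2, Loxl3, and Loxl4.

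Genes that act with the lysyl oxidases were described in 7 lists of 68 genes, of which 64 passed the minimum count. In aged bleo 30 of the 64 were called higher and 11 lower, where 12.3% and 11.5% of all genes tested were. The lists were chosen with earlier results of these data known, so these counts are a description and no test of an excess.

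The substrates moved together. All 8 genes of fibrillar collagens, collagen IV, and elastin were called higher, with a median log2 fold change of 1.61. Beside Col1a1, Col5a2 (fibril-initiating collagen V) rose from 655 ± 62.4 CPM (SD, n = 4) to 3099.9 ± 618 CPM (SD, n = 5) (edgeR log2 fold change 2.24, FDR 5.36e-05). Col4a2, a chain of basement membrane collagen, rose by 1.77 on the log2 scale, and Eln, which encodes elastin, by 1.63.

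Of the genes for cleavage of propeptides and proproteins, 2 were higher, 2 lower, and 4 not called. Bmp1, whose product removes the propeptide of Lox and of procollagen, was at 365 ± 18.0 CPM (SD, n = 4) and 412 ± 41.6 CPM (SD, n = 5) and was not called (edgeR log2 fold change 0.18, FDR 0.168). The proprotein convertase gene Furin rose from 79.8 to 85.0 CPM in aged sham to 132 to 238 CPM in aged bleo. Another convertase gene, Pcsk6, went the other way, from 414 to 443 CPM to 17.2 to 149 CPM. The procollagen N-proteinase genes differed as well, since Adamts14 rose by 1.44 on the log2 scale and the more abundantly counted Adamts2 had a log2 fold change of 0.03 (FDR 0.932). Of the enhancers of procollagen C-proteinase, Pcolce2 fell by 1.77, and Pcolce had a log2 fold change of -0.47, within the fold threshold.

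Copper supply genes were split, with 3 higher, 4 lower, and 5 not called. The copper importer gene Slc31a1 rose from 30.9 ± 2.21 CPM (SD, n = 4) to 53.3 ± 9.32 CPM (SD, n = 5). Slc31a2 of the same list fell, from 31.7 ± 2.12 CPM (SD, n = 4) to 19.1 ± 4.42 CPM (SD, n = 5). Atp7a, the pump that loads copper onto secreted enzymes, was at 33.02 ± 11.1 and 31.9 ± 3.78 CPM and was not called (edgeR FDR 0.864). The metallothionein genes Mt1 and Mt2, which encode metal-binding proteins of the cytosol, fell by 1.46 and 1.34. Among the metalloreductase genes, Steap2 rose by 0.81, Steap3 fell by 0.97, and Steap4 had a log2 fold change of 0.30 with overlapping groups.

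Of 8 matrix proteins that bind lysyl oxidases or their substrates, 5 were higher and 2 lower. Fmod (fibromodulin, a collagen-binding proteoglycan) had the largest difference among them, with 28.0 to 48.3 CPM in aged sham and 449 to 643 CPM in aged bleo. Postn (periostin) rose by 2.32, Thbs1 (thrombospondin 1) by 1.49, and Fn1 (fibronectin) by 1.02. Genes of elastic fiber proteins went both ways, since Emilin1 rose by 0.99 on the log2 scale and Fbln5 and Ltbp4 were the lower pair. Ltbp4 went from 5283 to 5858 CPM in aged sham to 845 to 3703 CPM in aged bleo. Efemp2 (fibulin 4), which tethers Lox to tropoelastin, had a log2 fold change of 0.34 and did not pass the fold threshold.

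Among 8 genes for the hydroxylation and glycosylation of collagen lysines, which set the type of cross-link, 4 were higher and 1 was lower. Plod2, the hydroxylase of telopeptide lysines, rose from 65.2 ± 5.17 CPM (SD, n = 4) to 166 ± 46.7 CPM (SD, n = 5), Fkbp10, which encodes a chaperone of collagen, by 1.27 on the log2 scale, and Plod1 by 0.90. Plod3 was higher without overlap of the groups but stayed within the fold threshold (edgeR log2 fold change 0.46, FDR 0.00384). P3h3 was not called, with a log2 fold change of -0.10 and overlapping groups. Colgalt2, a collagen galactosyltransferase gene, fell by 2.05.

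The other cross-linking enzymes and amine oxidases gave 3 higher, 1 lower, and 3 not called genes among 7 tested. Pxdn, whose product links collagen IV chains, rose by 1.25. The transglutaminase gene Tgm1 rose by 0.92 from a low level (2.96 to 4.36 CPM in aged sham), and Tgm2, the most abundantly counted one, was not called (log2 fold change 0.36, edgeR FDR 0.0633). Aoc1, a diamine oxidase gene, was at 0 to 0.162 CPM in aged sham and 1.65 to 3.50 CPM in aged bleo. It reached the minimum average count only through the aged bleo libraries, so its place among the 3 higher genes here, and among the 30 of 64, adds no support. Aoc3, another copper amine oxidase gene, fell by 1.03 with an edgeR FDR of 0.0529.

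Of 13 genes of TGF-beta, hypoxia, and Snail regulators, 5 were higher and 1 was lower. Tgfb1 rose from 26.5 ± 1.09 CPM (SD, n = 4) to 109 ± 28.1 CPM (SD, n = 5). Snai1, the transcription factor Snail that Loxl2 and Loxl3 have been linked to, rose by 1.86, its relative Snai2 by 1.16, and the hypoxia factor gene Hif1a by 0.91. Ccn2, a gene induced by TGF-beta, fell by 0.86. Tgfb3 and Tgfbr2 had log2 fold changes of 0.47 and 0.36, within the fold threshold.

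**Figure D5:**
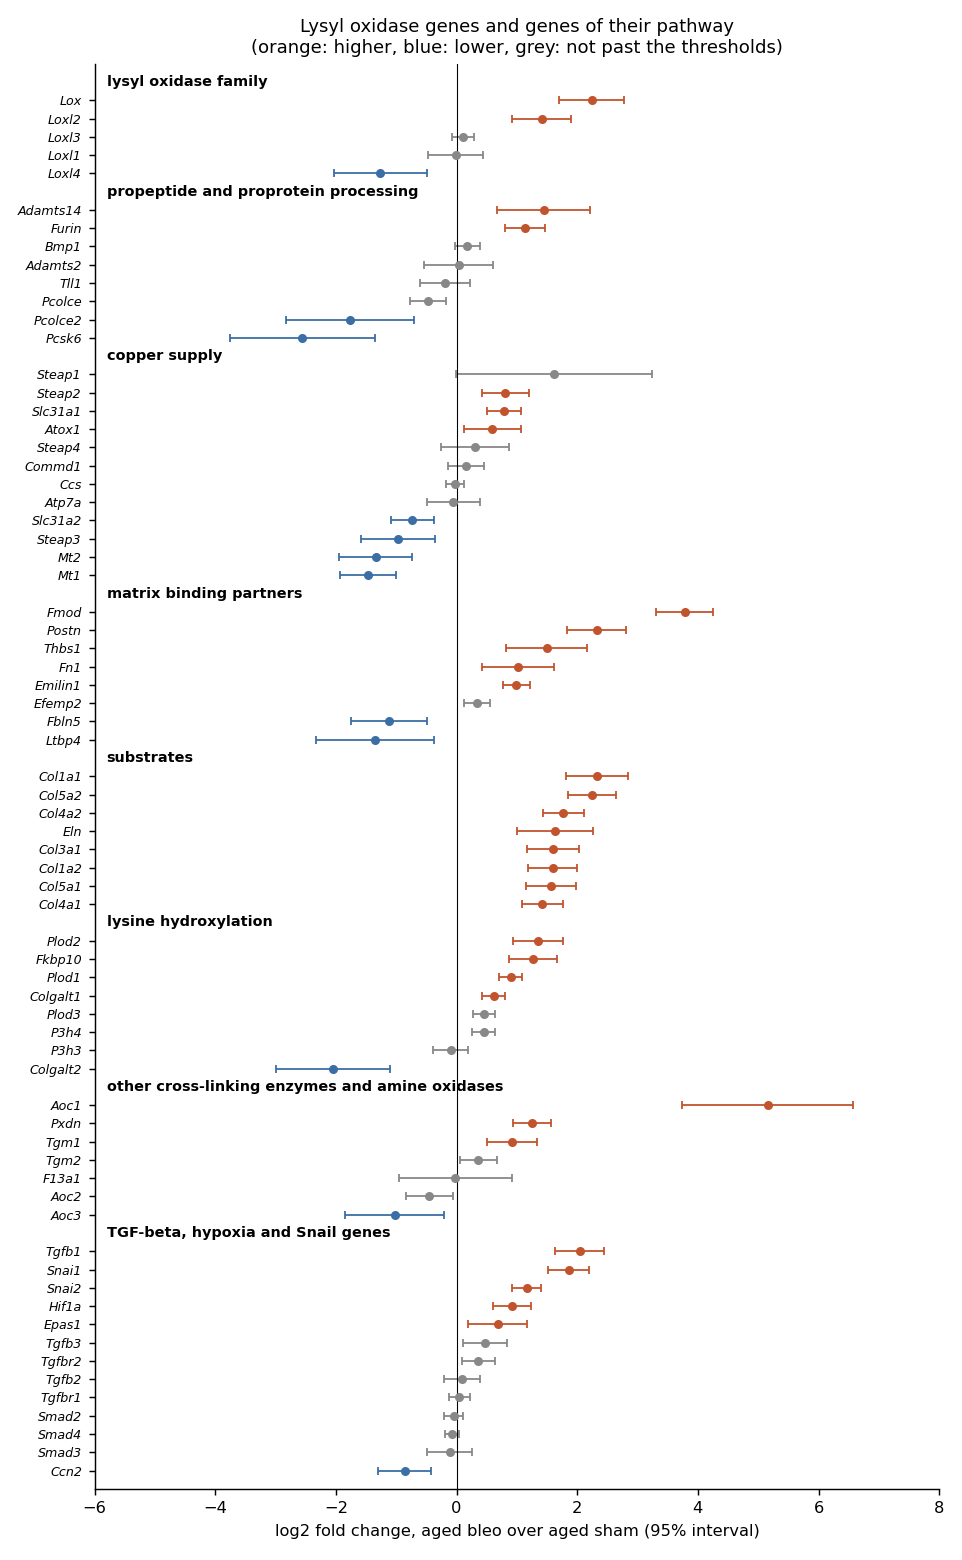
Log2 fold change of aged bleo over aged sham (x axis) with its 95% interval for the 5 lysyl oxidase genes and the 64 tested genes of the 7 lists (y axis), colored by whether a gene was called higher (orange), called lower (blue), or not called (grey). All 8 substrates lie to the right of 0, and the other lists hold genes on both sides.

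Some markers of other cells differed between the groups as well. Macrophage genes summed to 254 to 643 CPM in aged sham and 594 to 1994 CPM in aged bleo, with 5 of 8 called higher. Their defining marker Adgre1 was at 3.29 to 5.65 and 4.28 to 28.3 CPM. The sums were highest in aged sham 4 and aged bleo 4, as were those of pan-leukocyte genes (94.3 to 351 and 97.9 to 545 CPM, with 1 of 6 called higher). Neutrophil genes, with S100a8 at 14.1 to 97.1 and 10.9 to 114 CPM, had their highest sums in the same libraries (169.5 to 1017 and 84.8 to 905 CPM), and the lowest edgeR FDR among the 6 was 0.247, for Csf3r. With both of these libraries left out, Lox differed by 2.18 (edgeR log2 fold change, FDR 0.00309), Loxl2 by 1.41 (FDR 0.00784), and Loxl4 by -1.19 (FDR 0.0223). The macrophage sums of the libraries left still lay apart, at 254 to 350 CPM in aged sham and 594 to 941 CPM in aged bleo. Leaving the libraries out thus did not even out the macrophage genes between the groups. Smooth muscle and pericyte genes summed to 2586 to 5226 CPM in aged sham and 1853 to 2991 CPM in aged bleo, with 1 of 7 called higher and 2 lower. Their defining marker Myh11, at 923 to 1810 and 213 to 990 CPM, was called lower (edgeR log2 fold change -1.16, FDR 0.0412). Endothelial genes, with 2 of 6 called higher and 1 lower, summed to 159.8 to 194 and 24.4 to 66.8 CPM, mainly through Tek, at 161 ± 12.9 and 28.9 ± 18.8 CPM, while Pecam1 did not pass the thresholds (edgeR log2 fold change -0.49, FDR 0.134). Epithelial genes summed to 8.43 to 80.9 and 15.2 to 51.4 CPM, with 1 of 7 called higher and 1 lower. Mesothelial genes summed to 22.6 to 71.0 and 27.5 to 106 CPM, and the lowest edgeR FDR among the 4 was 0.121, for Msln. Lymphocyte genes summed to 4.64 to 10.2 and 1.36 to 13.9 CPM, with 2 of 4 tested called lower. Fibroblast genes did not move one way, as 3 of 9 were called higher, 3 lower, and 3 not, with a median log2 fold change of -0.18. Their sum was 20925 to 23831 CPM in aged sham and 34586 to 48854 CPM in aged bleo, and the higher sum came mainly from Col1a1 and Col1a2, whereas Dcn fell by 1.54, Pi16 by 1.51, and Tcf21 by 1.10 on the log2 scale. The lymphocyte markers Cd3e and Cd79a were at 1.87 to 3.73 and 1.69 to 3.00 CPM in aged sham, and at 0.484 to 8.00 and 0.531 to 1.60 CPM in aged bleo. No defining marker was at 0 in every library. The part of these cells in the values of the lysyl oxidase genes was not tested.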

How the data were processed

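RNA-Seq libraries of polyadenylated RNA from sorted fibroblasts of 4 aged sham and 5 aged bleo mice were grouped by the treatment in their sample labels. The authors deposited 1 table with whole-number read counts per gene, not normalized, and FPKM values, which they scaled to gene length and library total. The submitters' processing notes name STAR 2.5.2b, featureCounts, and the builds mm10 and GRCm38, and 78.9% of shared gene identifiers had the positions of GENCODE M21. The kit does not mark strand, so overlapping genes may share reads.

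edgeR 4.0.16 in R 4.3.3 was run on the genes whose counts averaged 25 or more (TMM, quasi-likelihood, no covariate, all libraries), with p-values adjusted over 16877 genes. Ratios of FPKM were tested by exact permutation in scipy 1.17.1. No replicate was a duplicate of another (chi-square per degree of freedom of their counts, 31.2 to 469). The scripts were tested on simulated data. DESeq2 1.42.0 and limma 3.58.1 were alternatives, with other filters, scalings, and thresholds.

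The members, gene lists, and tests were chosen with earlier results of these data known. Named are all members, the 3 genes most like each in log2 CPM (prior count 2, group means removed), up to 4 called and 2 uncalled genes per list, Col1a1, Eln, Bmp1, Fn1, defining markers, and overlapping genes. One gene that this rule names is not reported here. Slc31a1, Slc31a2, Tek, Ccn2, Fbln5, Efemp2, Col1a2, Dcn, Pi16, Tcf21, Emilin1, Csf3r, and Msln were added after their values were seen.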

Additional observations from a re-analysis of the deposited data

Results flagged for a closer look

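The share of Lox in the summed FPKM of the family was 10.1% in aged sham 2, apart from the 8.85% to 9.05% of the other 3 aged sham libraries. It was marked because its gap to the nearest library took up most of the range of the group. Among the 20 groups of values examined in this way, chance marks about 1 in 20, and the value lay far below the lowest aged bleo share of 19.98%.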

How the results depend on the processing

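Under all 22 alternatives of the fit, the same number of members was called (3 of 5), and Lox (log2 fold change 2.02 to 2.40), Loxl2 (1.23 to 1.66), and Loxl4 (-2.43 to -1.01) kept their direction and their calls. Loxl3 (0.06 to 0.15) was never called. Loxl1 was never called either, but its sign turned, to 0.00012 with no filter on low counts, 0.10 with aged sham 4 and aged bleo 4 left out together, 0.052 with a replicate block, and from -0.10 to 0.0842 with single libraries left out. The number of genes called moved from 4022 to 1785 with limma-trend on log2(FPKM + 1), to 2158 at stricter thresholds (FDR 0.05, fold change 2), and to 6394 with the ending of the descriptions as a term. With aged sham 4 and aged bleo 4 left out together, 0 of the 10 member ratios and 0 of the 5 ratios to Col1a1 passed, since 7 libraries allow no p below 0.0571 by exact permutation. The differences themselves were close to those of all libraries, for example 2.04 against 2.24 for Lox to Loxl1, 3.34 against 3.55 for Lox to Loxl4, -2.17 against -2.35 for Loxl1 to Col1a1, and -0.89 against -0.93 for Loxl2 to Col1a1, while that of Loxl1 to Loxl3 turned to 0.0033. The share of Loxl3 in summed counts fell by 2.60 percentage points, against 1.84 in summed FPKM. The 1 lower call among the other cross-linking enzymes, Aoc3, was lost without aged sham 2, aged sham 3, or aged bleo 5. Of the copper supply genes, 2 to 4 were called higher with DESeq2 or with single libraries left out, and 4 were called lower each time. Replicate numbers did not pair the libraries (correlations of same-numbered libraries 0.09, 0.06, -0.13, and 0.33). The replicate block gave 3536 called genes and changed no member's call.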
